A study of Homo sapiens with 4 samples.

Results

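The genes described here are the 150 whose reads were most concentrated in the monosome library of a polysome gradient from HEK293T cells, a human embryonic kidney cell line. They were chosen from the measured values. A gene needed a sum of 100 or more counts across the libraries. Each library was scaled to a common total (CPM, the count over the library total), and the genes were ranked by the monosome CPM as a percent of the summed CPM, called the monosome percent below. Of 19948 genes in the table, 4343 reached the minimum, and 3765 remained as candidates after the genes of 24 symbol prefixes (ribosomal proteins, respiratory chain, proteasome, solute carriers and others) were dropped. The first 150 of these 3765 are the members.

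The 4 libraries were made from the free pool, the monosome pool, the light polysome pool and the heavy polysome pool, with 1 library each. All the cells had received cycloheximide, which halts elongating ribosomes, at 100 ug/mL for 10 min, and no untreated cells were part of the comparison. RNA that was both capped and polyadenylated was sequenced directly. There were no replicates, so no value below has a replicate error, no test between pools could be made, and the intervals given are exact (Clopper-Pearson) 95% intervals for counting error only. The study's subject was the translation of mRNAs with a 5′ terminal oligopyrimidine (TOP) start.

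In a sucrose gradient an mRNA sediments with the number of ribosomes it carries. An mRNA with a single ribosome runs with the monosome peak, and those with several run as polysomes. How many ribosomes an mRNA carries depends on how often translation starts, how fast ribosomes move and how long the coding sequence is, and start codons upstream of the coding sequence can engage scanning ribosomes before they reach it.

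The libraries held 355509 counts (free), 1329334 counts (monosome), 1499401 counts (light polysome) and 1564531 counts (heavy polysome). Of the markers checked for the line, VIM had 850 counts over the 4 libraries and KRT18 had 285, while PAX2 had 6. Of the markers of other cell types, PTPRC, CD3E, ALB and PECAM1 had 0, COL1A1 had 2 and HBB had 4.

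Coding sequences of 5 members with short proteins are shown first, because protein length was among the features the members shared. They were chosen after their values were seen and are not the 5 shortest. They were read 5′ to 3′ from GENCODE release 29 on GRCh38, and capitals mark the start and stop codons. OST4 (chr2:27070472-27071773, minus strand) is a subunit of the oligosaccharyltransferase that glycosylates proteins in the endoplasmic reticulum. COPS9 (chr2:240126563-240136807, minus strand) belongs to the COP9 signalosome, which acts on cullin ubiquitin ligases. TMA7 (chr3:48440257-48444208, plus strand) is named for its association with the translation machinery. SEC61G (chr7:54752250-54759974, minus strand) is the gamma subunit of the Sec61 channel, and CDC26 (chr9:113255835-113275589, minus strand) is a small subunit of the anaphase-promoting complex.
OST4: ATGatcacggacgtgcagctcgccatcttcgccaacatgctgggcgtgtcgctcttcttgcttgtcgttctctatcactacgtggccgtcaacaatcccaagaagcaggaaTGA
COPS9: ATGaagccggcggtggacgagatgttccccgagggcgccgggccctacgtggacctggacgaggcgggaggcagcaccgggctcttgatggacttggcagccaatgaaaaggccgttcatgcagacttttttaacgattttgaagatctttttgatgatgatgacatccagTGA
TMA7: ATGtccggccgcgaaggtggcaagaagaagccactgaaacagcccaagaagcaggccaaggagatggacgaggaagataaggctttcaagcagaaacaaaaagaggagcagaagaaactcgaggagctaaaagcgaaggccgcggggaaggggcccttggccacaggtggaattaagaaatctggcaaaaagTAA
SEC61G: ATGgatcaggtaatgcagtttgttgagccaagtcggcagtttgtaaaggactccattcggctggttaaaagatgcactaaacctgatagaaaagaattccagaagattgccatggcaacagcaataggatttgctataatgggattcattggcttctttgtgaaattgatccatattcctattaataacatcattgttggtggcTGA
CDC26: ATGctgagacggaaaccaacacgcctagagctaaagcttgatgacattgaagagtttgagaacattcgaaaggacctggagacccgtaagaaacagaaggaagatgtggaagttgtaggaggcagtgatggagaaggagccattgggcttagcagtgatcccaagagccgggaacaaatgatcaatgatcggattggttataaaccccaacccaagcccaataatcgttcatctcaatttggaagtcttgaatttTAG

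These 5 sequences encode proteins of 37 residues (OST4), 57 residues (COPS9), 64 residues (TMA7), 68 residues (SEC61G) and 85 residues (CDC26).

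The members' level in the monosome library is what selected them, so it is given as a description. Their counts summed to 3245 in the free, 56572 in the monosome, 37881 in the light polysome and 8121 in the heavy polysome library, which was 0.913%, 4.26%, 2.53% and 0.519% of those libraries. The median member had 10.4% of its summed CPM in the free, 49.2% in the monosome, 29.4% in the light and 6.68% in the heavy polysome library, and the median candidate had 4.03%, 12.7%, 31.0% and 47.1% in the same order. The monosome library was the highest of the 4 for 149 members, and the light polysome library was the next highest for 130. SCOC, the last member, had a monosome percent of 43.82, and the first genes outside were STARD3NL (43.73), MTLN (43.66), C8orf88 (43.61), FAM104B (43.42) and AMZ2 (43.20). By counting error the border was not sharp, since 77 members had a lower bound above the value of the last member, and 99 genes outside had an upper bound above it. Members ranged from 100 to 9880 counts (median 414.5, against 257 for the candidates), and 44 of them had fewer than 200.

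**Figure D1:**
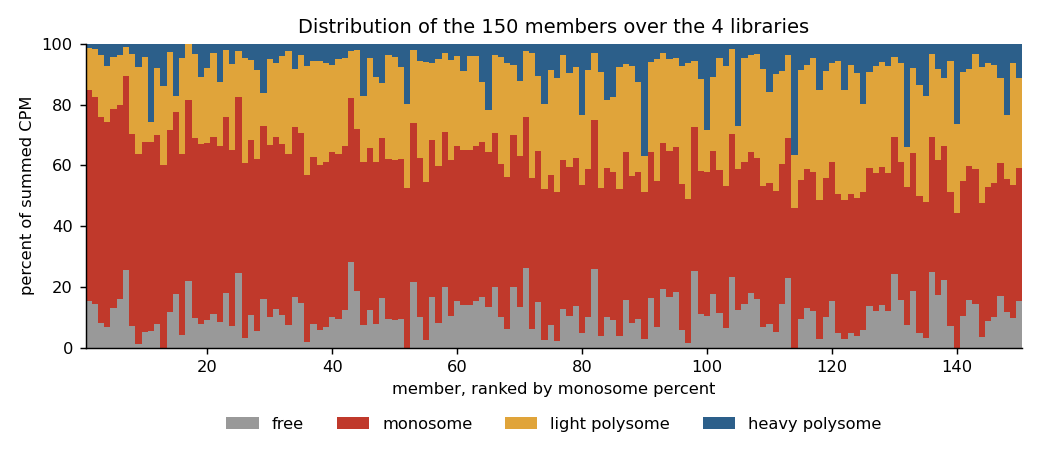
Percent of summed CPM in the free, monosome, light polysome and heavy polysome libraries (vertical axis) for each of the 150 members, ranked by monosome percent (horizontal axis). The monosome part takes from 43.8% to 69.4% of each bar, and in most bars the light polysome part is next.

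Genes of the dropped families also reached this range. Down to the last member, 188 genes were ranked, of which 38 (20.2%) had a dropped symbol, against 578 (13.3%) of all 4343. RPL41, a ribosomal protein of very small size, was among the highest of these with 838 counts in the free, 19019 in the monosome, 5665 in the light polysome and 459 in the heavy polysome library, a monosome percent of 69.0. LSM10, a component of the U7 snRNP, had a monosome percent of 66.0 and the bile acid ligase gene SLC27A5 one of 61.3.

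A gene was called higher or lower between a pair of libraries when its shares were at least 2-fold apart and the counting interval excluded equal shares. Against the free library, 141 of 150 members were called higher in the monosome library and 0 lower, beside 42.8% of all 4343 genes called higher and 0.898% called lower. Against the light polysome library, 52 were called higher and 0 lower, beside 3.5% of all genes called higher and 51.4% called lower. Against the heavy polysome library, 143 were called higher and 0 lower, beside 12.9% of all genes called higher and 64.4% called lower. The rule used these 3 contrasts, so nothing is read from the counts. The median log2 ratio of the members was 2.18, 0.74 and 2.89 in the 3 comparisons, beside medians of 1.39, -1.05 and -1.78 over all genes.

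The genes at the top of the ranking had varied roles. The gene ranked first, AL445524.2, is known here only by its clone name and had 45 counts in the free, 761 in the monosome, 172 in the light polysome and 18 in the heavy polysome library, a monosome percent of 69.4 (66.1 to 72.5). SELENOW, a selenoprotein, ranked 2 with 42, 737, 197 and 19 counts in the same library order. CDC26 had 14, 448, 152 and 29 counts, and its monosome percent of 67.9 (64.1 to 71.6) could not be told from that of SELENOW by counting error. In each of these genes the monosome library stood far above the other 3 in CPM. TYW3, an enzyme of wybutosine synthesis on tRNA, had a monosome percent of 67.5 from 332 counts. TMEM167A, a small membrane protein of the secretory pathway, had one of 63.9. RBX1, the RING subunit of the cullin ubiquitin ligases, had the most counts of the first 25 genes, with 118 CPM in the free, 1477 CPM in the monosome, 659 CPM in the light polysome and 104 CPM in the heavy polysome library. The others of the first 25 included AIDA, CCNB1IP1, the histone methyltransferase SUV39H2, the mRNA-binding zinc finger protein UNK, the export factor NXT2, the ER membrane complex subunit EMC6, the kinesin KIF9 and the kinase MAP3K13.

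PRELID1, which carries phosphatidic acid between mitochondrial membranes, was the most counted member. It had 246 counts in the free, 5290 in the monosome, 3834 in the light polysome and 510 in the heavy polysome library, a monosome percent of 52.7 (51.7 to 53.7). TMA7 had 103, 2155, 1573 and 175 counts in the same order, and COPS9 had 83, 1612, 871 and 97. EMC6 had 137, 1661, 718 and 68 counts. All 4 had their highest CPM in the monosome library, their next highest in the light polysome library and their lowest in the heavy polysome library. The other most counted members were C1orf43, RBX1, TMEM183A, OST4, the nucleotidase NT5C3B and HIGD2A, with monosome percents from 46.4 to 62.6.

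Short proteins were common among the members. Of 147 members with an annotated coding transcript, 52 (35.4%, interval 27.7 to 43.7) encoded at most 150 residues, against 402 of 3748 candidates (10.7%). The members' median was 219 residues (quartiles 119 and 358), against 345 for the candidates (quartiles 221 and 500). The same share was 12.0% in the 150 genes most concentrated in the light polysome library, and 0 of 150 in those most concentrated in the heavy polysome library, which allows up to 2.43% by counting error. Proteins over 500 residues made up 13.6% of the members and 25.0% of the candidates, and the long ones included those of BRWD1 (2320 residues), the transcription factor CAMTA1 (1673), the integrin subunit ITGAE (1179) and MLLT10 (1027). Read the other way, 20.8% of the candidates with at most 100 residues were members, falling over the length classes to 2.14% of those with more than 500, beside 3.98% of all candidates. Over 3748 candidates the Spearman correlation of protein length with monosome percent was -0.26, as a description across genes that all share the same 4 libraries; within the members it was 0.08. Length did not run with the list under every ranking. When genes were ranked by monosome against light polysome CPM alone, 61 of the members were kept, and that list had a median of 377 residues and 12.9% short proteins.

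**Figure D2:**
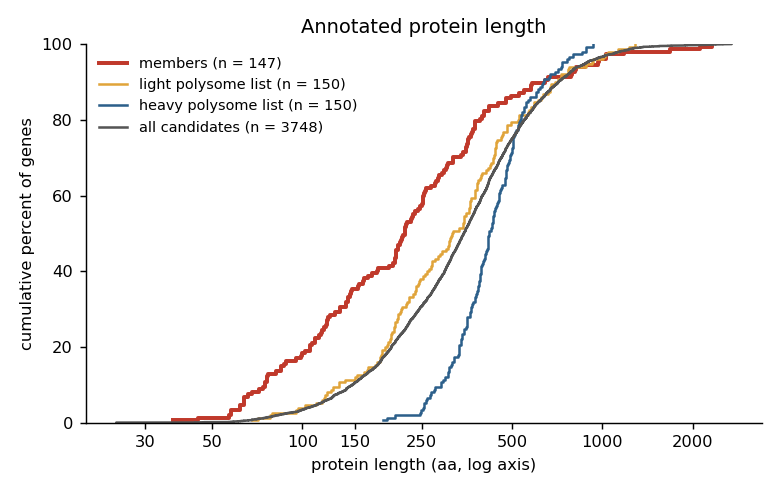
Cumulative percent of genes (vertical axis) by annotated protein length in residues (horizontal log axis) for the members, the light polysome list, the heavy polysome list and all candidates. The curve of the members lies left of the others up to about 500 residues, with medians of 219 for members, 316.5 for the light polysome list, 418 for the heavy polysome list and 345 for all candidates.

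ATG triplets ahead of the annotated start codon were also more frequent. An upstream ATG was present in the 5′ UTR of 106 members (72.1%, interval 64.1 to 79.2), against 1837 candidates (49.0%), 78.0% of the light polysome list and 27.3% of the heavy polysome list. The members' leaders were not longer, with a median of 171 nt, against 187 nt for the candidates. In leaders of up to 100 nt an upstream ATG stood in 34.1% of members and 14.1% of candidates, and in leaders over 100 and up to 200 nt in 73.2% of members and 39.5% of candidates. Counting over all leader bases gave 0.909 ATGs per 100 nt in the members and 0.561 in the candidates. When an ATG was required in every annotated coding transcript of a gene, the shares were 46.3% of members and 27.5% of candidates. CDC26 had 6 such ATGs in a leader of 359 nt, and CCNB1IP1, a ubiquitin ligase of meiotic recombination, had 8 in 465 nt, whereas COPS9, TMA7 and RBX1 had 0 in leaders of 19 to 40 nt. The transcript that was sequenced was not known, so an annotated leader need not be the one present. Of the 52 members with at most 150 residues, 38 had an upstream ATG. Of the candidates with at most 150 residues, 21.2% of those with an upstream ATG were members (38 of 179) and 6.28% of those without one. Of the longer candidates, 4.10% of those with one and 1.6% of those without were members.

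Coding sequences of the members were lower in GC. Their median GC was 46.5%, against 54.2% for the candidates, 61.2% for the light polysome list and 48.8% for the heavy polysome list. Of candidates with at most 40% GC, 18.8% were members, and of those above 60% GC, 1.93%. The lower GC stood in each length class, from 45.5% in members and 51.2% in candidates with at most 100 residues to 48.3% in members and 55.6% in candidates over 500. It was smaller in the most counted genes: among those with at least 1000 counts the medians were 52.9% for members and 54.1% for candidates, and among those with under 200 counts 41.6% for members and 53.7% for candidates.

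**Figure D3:**
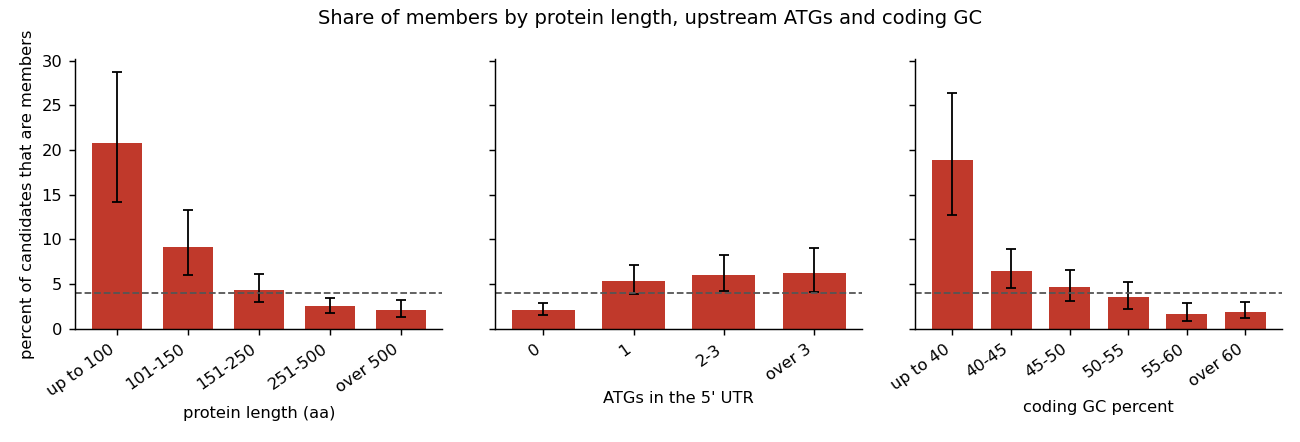
Percent of candidates that were members (vertical axis) by protein length in residues, by number of ATGs in the 5′ UTR and by coding GC percent; bars carry 95% Clopper-Pearson intervals and the dashed line is the 3.98% of all candidates. The share is highest at up to 100 residues (20.8%) and at up to 40% GC (18.8%), and is 2.1% with 0 upstream ATGs.

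Other features lay close to the candidates. A TOP-like start, here a C followed by at least 4 pyrimidines (C or T) on the sense strand, beginning within 5 bases of the start in the RefSeq promoter table, was found in 24 of 126 members with a sequence (19%, interval 12.6 to 27.0) and in 726 of 3171 candidates (22.9%), beside 49 of 65 ribosomal protein genes (75.4%). An annotated start is not a measured one. A hydrophobic stretch of 19 residues was found in 34.0% of members and 26.5% of candidates. Lysine and arginine made up a median of 11.8% of residues in members and 11.7% in candidates, and a purine stood at position -3 of the start codon in 89.5% of members and 87.7% of candidates.

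The rule used the light and heavy polysome libraries through their sum with the others, so a high monosome percent limits both, and their split is given as a description. Light polysome CPM made up a median of 83.1% of light plus heavy CPM in the members and 41.6% in the candidates, and it exceeded heavy polysome CPM in 139 of 150 members and 1516 of 3765 candidates (40.3%). Of the members, 126 were called higher in the light than in the heavy polysome library and 6 lower, beside 22.7% of all genes called higher and 37.5% called lower. The median log2 ratio was 2.29 in the members and -0.40 over all genes. The level of the candidates depended on the scaling: with edgeR TMM factors the median light share was 85.0% in the list and 51.1% in the candidates, and with DESeq2 size factors 84.5% in the list and 50.6% in the candidates. Ranked by monosome and light polysome alone, the list had a median light share of 35%, below that of the candidates. Nothing is read from these counts. AP4S1, the small subunit of the AP-4 adaptor, had 7 counts in the free, 71 in the monosome, 25 in the light polysome and 0 in the heavy polysome library. A limit of 3 counts in place of that 0, which is not a Clopper-Pearson interval, is 1.92 CPM. SMIM29, TMEM14B, the linker histone gene HIST1H1E and MMD followed AP4S1, with light shares from 93.0% to 94.1%. Within the members, protein length and light share had a Spearman correlation of -0.43 (n = 147 genes, from the same libraries). Length was not alone in this. The correlation with light share was 0.48 for coding GC and -0.43 for exon number, and 0.43 for summed count (n = 150). The 139 members with light above heavy CPM had a median of 210 residues, and the 1506 annotated candidates with light above heavy CPM had 240. An upstream ATG was present in 75% of those members and in 60.6% of those candidates, with a median GC of 48.4% in the members and 56.1% in the candidates.

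The remaining 11 members had more heavy than light polysome CPM, so their light polysome level lay below both neighbours; this was so for 7.33% of members and 9.56% of candidates. CSE1L, the factor that returns importin alpha to the cytoplasm, had 14.1 CPM in the free, 165 CPM in the monosome, 17.3 CPM in the light polysome and 67.8 CPM in the heavy polysome library. COIL, the Cajal body protein coilin, had 28.1, 96.3, 8.67 and 27.5 CPM in the same order. Both were called lower in the light than in the heavy polysome library, at log2 ratios of -1.95 (-2.64 to -1.34) for CSE1L and -1.63 (-2.68 to -0.74) for COIL. DEPDC1, SCFD1, which acts with SNARE proteins in vesicle fusion, and TGDS were next in light share. These 11 genes had a median of 476 residues, against 210 for the other members, and an upstream ATG in 4 of 11 (36.4%), against 75%. The 2242 annotated candidates with heavy above light CPM had a median of 393 residues, and 41.2% had an upstream ATG. Summed counts had a median of 178 in the 11 genes, 468 in the other members and 224 in the candidates with heavy above light CPM. The light polysome levels of the 11 rest on a median of 26 counts, from 13 for COIL to 98 for C18orf21.

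**Figure D4:**
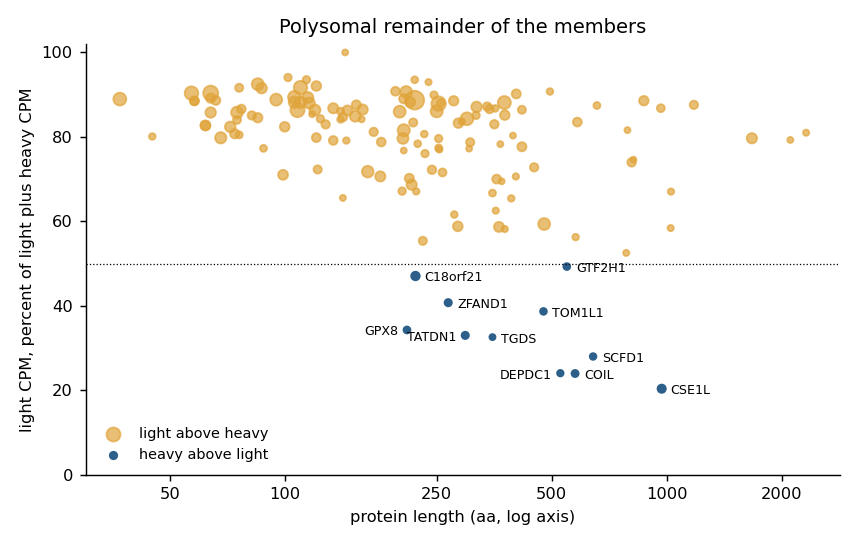
Light polysome CPM as a percent of light plus heavy polysome CPM (vertical axis) against protein length (horizontal log axis) for 147 members, with point area growing with the square root of the summed count. The 11 named genes lie below the line at 50%, and none of them encodes fewer than 209 residues.

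SELENOW and SELENOF, both selenoproteins, belong to a family whose mRNAs are read through an in-frame TGA, which inserts selenocysteine. Their coding sequences are given because this codon is what the family shares: all of SELENOW (chr19:47778572-47784686, plus strand) and 63 bases around the codon in SELENOF (chr1:86862445-86914424, minus strand), from the same annotation, with start, stop and in-frame TGA codons in capitals. The TGA is codon 13 in SELENOW and codon 96 in SELENOF.
SELENOW: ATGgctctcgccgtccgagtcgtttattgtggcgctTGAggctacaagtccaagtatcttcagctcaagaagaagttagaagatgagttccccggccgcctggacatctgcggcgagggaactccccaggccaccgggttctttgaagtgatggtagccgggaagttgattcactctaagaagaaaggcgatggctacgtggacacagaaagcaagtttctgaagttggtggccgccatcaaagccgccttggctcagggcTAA
SELENOF: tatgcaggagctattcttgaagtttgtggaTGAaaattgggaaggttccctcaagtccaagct

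SELENOW had 118 CPM in the free, 554 CPM in the monosome, 131 CPM in the light polysome and 12.1 CPM in the heavy polysome library. SELENOF, a protein of the endoplasmic reticulum, had 87.2, 588, 309 and 121 CPM in the same order, a monosome percent of 53.2. Both stood highest in the monosome library, and SELENOF kept a larger part of its CPM in the heavy polysome library than SELENOW did. They were 2 of 14 selenoprotein candidates (14.3%), beside 3.98% of all candidates. The peroxidase genes GPX1 and GPX4 followed with monosome percents of 39.6 and 32.2, and the other 10 selenoproteins ranged from 5.52 for the thioredoxin reductase TXNRD1 to 26.6 for SELENOM, so the family was spread over most of the candidates' range.

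Small subunits of the anaphase-promoting complex, the ubiquitin ligase that drives exit from mitosis, were a further group. CDC26, ANAPC13 and ANAPC15 were members, out of 7 candidates named ANAPC or CDC26 (42.9%), beside 3.98% of all candidates. CDC26 was included although its symbol lacks the ANAPC prefix, while subunits under other symbols were not counted. It is itself a member, so this grouping raises the share, and nothing is read from the 42.9%. ANAPC13 had 17 counts in the free, 338 in the monosome, 201 in the light polysome and 50 in the heavy polysome library, and ANAPC15 had 29, 332, 322 and 29. ANAPC16 lay just outside at rank 166, ANAPC11 had a monosome percent of 33.3, and ANAPC7 (15.5) and ANAPC5 (2.91) had most of their CPM in the heavy polysome library. With the phosphatase gene CDKN3, the list of small regulators of CDKs and mitosis had 4 of its 15 candidates among the members (26.7%). CDC26, ANAPC13 and ANAPC15 are counted in it again, so it is not a separate group. Of all candidates with at most 100 residues 20.8% were members, and of those over 100 and up to 150 residues 9.19%. The CDK inhibitor gene CDKN2A, the most counted gene of that list outside the members, had a monosome percent of 25.9.

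**Figure D5:**
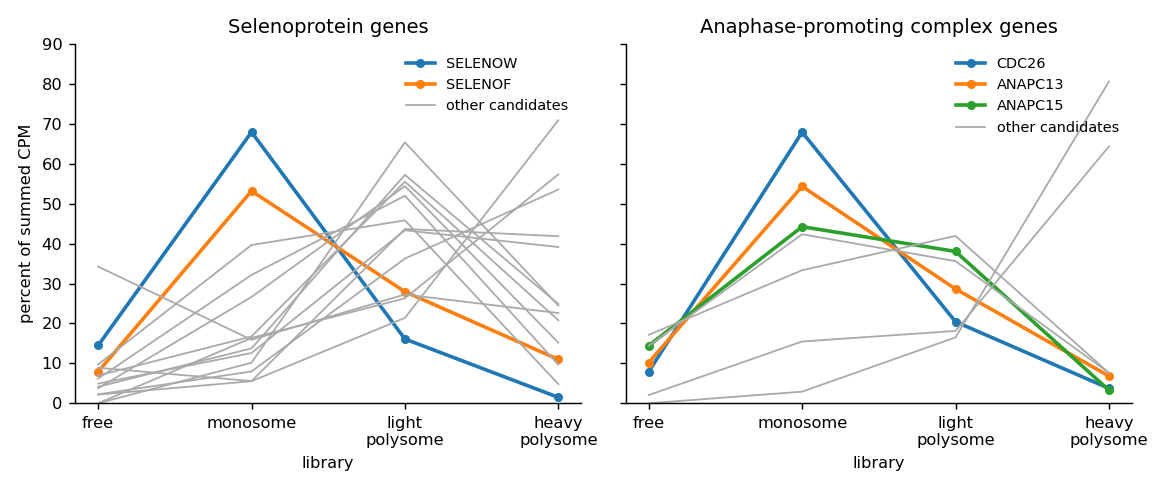
Percent of summed CPM (vertical axis) in the free, monosome, light polysome and heavy polysome libraries (horizontal axis). Shown are the selenoprotein candidates and those named ANAPC or CDC26, with members in colour and the other candidates in grey. SELENOW and CDC26 both peak at 67.9% in the monosome library, and the grey lines peak mostly in the light or heavy polysome library.

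Small proteins of mitochondrial and endoplasmic reticulum membranes gave 6 members. Of 26 candidates in a list of small mitochondrial inner membrane and assembly proteins, 4 were members: the supercomplex factor HIGD2A, the cytochrome oxidase assembly factors COA1 and COA3, and DNAJC19 of the import motor. Of 23 candidates in the list of small endoplasmic reticulum proteins, SEC61G and OST4 were members. The shares were 15.4% in the mitochondrial list and 8.7% in the endoplasmic reticulum list, beside 3.98% of all candidates. Among candidates with at most 100 residues 20.8% were members, and with over 100 and up to 150 residues 9.19%. Nothing is read from the counts of these lists. SEC61G had 138 CPM in the free, 497 CPM in the monosome, 303 CPM in the light polysome and 76.7 CPM in the heavy polysome library, and OST4 had 107, 771, 643 and 79.9 CPM. In OST4 the monosome level exceeded the light polysome level by a log2 ratio of only 0.26 (0.13 to 0.39). Equally small proteins lay elsewhere: SERP1 (66 residues) had a monosome percent of 10.8 and DAD1 (113 residues) one of 15.5.

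The other lists held at most 1 member each. Members made up 3.98% of all candidates and these lists are small, so nothing is read from the counts. There was 1 each among ubiquitin-like modifiers (ATG12, of 16 candidates), Ragulator, BLOC-1 and BORC subunits (BLOC1S2, of 10), and thymosins and small actin-binding proteins (TMSB15B, of 16). Prefoldin and tubulin cofactors (PFDN4, of 11) and box H/ACA and small splicing proteins (NOP10, of 16) also held 1 each. So did the list of high mobility group proteins and replication-independent histones (HMGN3, of 16). The same was true of non-ribosomal TOP mRNAs (NACA, of 11) and small vesicle trafficking subunits (AP4S1, of 18). None was found among 17 iron-sulfur proteins, 12 stress mRNAs with known upstream reading frames, 8 polyamine genes, 11 immediate-early genes, 14 redox genes, 2 metallothioneins, 9 glycolytic enzymes, 8 chaperonin subunits and 17 helicases. ATF4, whose translation is known to be held back by upstream reading frames, was outside with 272 counts in the free, 3745 in the monosome, 4895 in the light polysome and 670 in the heavy polysome library, a monosome percent of 38.7. The TOP mRNA TPT1 had a monosome percent of 30.8, with 5710, 10827, 1282 and 2222 counts in the same order.

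By symbol, 10 of 64 TMEM candidates (15.6%) were members, among them TMEM167A, TMEM183A and TMEM14B, beside 3.98% of all candidates. Members also made up 3 of 11 SMIM genes, 3 of 12 ZDHHC palmitoyltransferase genes, 6 of 61 genes named as open reading frames and 4 of 10 genes with clone names. Other prefixes gave 2 of 41 FAM, 2 of 29 RNF, 1 of 11 CENP, 1 of 11 HOX, 1 of 4 GNG and 1 of 6 COMMD genes. Most of these groups are small, and nothing is read from these counts or from the histone counts that follow. Histone genes with HIST1H or HIST2H symbols made up 3 members of 9 candidates, HIST1H2AH, HIST1H1C and HIST1H1E. The candidates outside the members included HIST1H4J and HIST1H4K, which have identical coding sequences, as do HIST2H2AA3 and HIST2H2AA4. Most mRNAs of replication-dependent histones lack the poly(A) tail that this preparation required. HIST1H1C, a linker histone, had 70.3 CPM in the free, 373 CPM in the monosome, 192 CPM in the light polysome and 25.6 CPM in the heavy polysome library.

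Some members are not independent of each other or of other genes. SMIM11A and SMIM11B have identical coding sequences and had 260 and 259 monosome counts, and SERF1A and SERF1B, also identical, had 340 and 341, so the members of each pair are not independent, although all 4 genes are counted among the 150 members and among the short proteins, and both SMIM11 genes among the SMIM members. TMSB15B differs from TMSB15A at 2 of 138 bases and TVP23B from TVP23C at 8 of 618. Z82206.1 matches TMA7 at 94.9% of its 195 coding bases, and its 46, 311, 213 and 27 counts are uncertain for the same reason. Exons on the opposite strand overlapped 22.4% of members and 19.8% of candidates, including CDC26 by 208 nt, EMC6 by 571 nt and PRELID1 by 731 nt, and the sources used here do not say whether strand was used in counting.

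The members shared 0 genes with the lists of 150 genes most concentrated in the light polysome and the heavy polysome library. They shared 18 (12.0% of each list) with the 150 genes most concentrated in the free library. Members made up 3.98% of all candidates, and since all these lists come from the same percents, the ranking itself limits such overlaps and nothing is read from them. There were 4 members with 0 counts in the free library, NXT2, NAT10, TGDS and RBSN. A limit of 3 counts in place of 0 is 8.44 CPM in the free library, which was the shallowest. This limit is not a Clopper-Pearson interval.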

How the data were processed

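The authors' deposited table holds raw, unscaled read counts for 19948 genes in 4 libraries, and 0 columns were left unused. The submitters' processing notes name hg38, minimap2 2.15, featureCounts and Subread 1.6.2; the annotation, strand setting and handling of multi-mapping reads are not given in these sources. Counts were divided by library totals (CPM), and log2 ratios took 0.5 added to each count. With 1 library per pool, edgeR's quasi-likelihood test could not be fitted, and edgeR 4.0.16 and DESeq2 1.42.0 gave only scaling alternatives. Protein length, 5′ UTR and coding GC came from GENCODE release 29, 1 principal transcript per gene (19398 genes matched), with Python 3.11.15, pandas 2.3.3, scipy 1.17.1 and Biopython 1.88. A hydrophobic stretch was a window of 19 residues with a mean hydropathy above 1.6. The members, the 21 gene lists and the comparisons were chosen with earlier results of these data known. Named are the 25 highest, 10 most counted, 10 shortest, 5 longest and 5 at each end of light share among the members, members of the lists, their most counted gene outside, the 5 genes just outside and the highest dropped symbols; any other gene was named after its values were seen. Some results on single genes were left out. The ranking was checked on simulated counts. Alternatives changed the minimum, the scaling, the libraries used, added counts, the list length and the transcript.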

Additional observations from a re-analysis of the deposited data

How the results depend on the processing

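The median monosome percent of the list (49.2) depended on the setting by construction: it was 51.9 with a minimum of 50 counts, 46.5 with 200, 41.9 with 500, 56.3 with edgeR TMM scaling, 56.5 with DESeq2 size factors, 55.9 with totals without ribosomal protein genes, 58.8 without the free library, 46.2 with 5 counts added, 54.5 for the top 75 and 43.8 for the top 300. TMM scaling also set the candidates' median at 21.9, against 12.7. The list shared 63 genes with the 150 members at a minimum of 500, and the top 75 share 75 with them by construction. The median protein length (219) was 176 residues at a minimum of 200 and 178 at 500, against 306 and 258 for the candidates. It was 259 under both TMM and DESeq2 scaling, against 345 for the candidates. With the shortest coding transcript of each gene it was 134, against 244.5 for candidates. The share of short proteins was 44.1% at a minimum of 200, against 14.0% of the candidates. The share with an upstream ATG was 63.9% at a minimum of 50, against 49.9% of the candidates. It was 46.3% when every coding transcript had to hold one, against 27.5%. Median coding GC was 49.7% at a minimum of 200 and 51.7% at 500. The light share of polysomal CPM was 85.2% for the top 75 and 80.2% for the top 300. The ranking by monosome and light polysome alone moved all 8 results: 61 shared genes, a monosome percent of 70.3, 377 residues, 12.9% short proteins, a light share of 35%, TOP-like starts in 27.4%, upstream ATGs in 53.1% and GC of 42.5%; the cause was not tested. Under that ranking the candidates had a median of 345 residues, 10.7% short proteins and a light share of 41.6%. TOP-like starts stood in 22.9% of them and upstream ATGs in 49.0%, with a GC of 54.2%. The transcript alternatives and those for upstream ATGs and GC were chosen after seeing the data. No paired analysis was possible because each pool had 1 library and the labels give no replicate numbers. Depth limits the free library most, at 355509 counts, and the 44 members with under 200 counts. Library, gradient and pool cannot be told apart.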
